A study of Mus musculus with 7 samples.

Results

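Glutathione transferases, glutathione peroxidases, peroxiredoxins, superoxide dismutases, catalase and UDP-glycosyltransferases were followed in the kidneys of mice with and without streptozotocin diabetes. The members are the protein-coding genes whose symbol places them in one of these enzyme families: the cytosolic and mitochondrial glutathione transferases (Gsta, Gstm, Gstp, Gstt, Gstk, Gsto and Gstz), the microsomal ones (Mgst), the glutathione peroxidases (Gpx), the peroxiredoxins (Prdx), Sod1 to Sod3, Cat and every Ugt gene with a number. The rule used names and no measured value. It found 51 genes of the 17537 genes listed, of which 15653 are protein-coding, and they fall into 12 groups: 4 GST alpha, 7 GST mu, 3 GST pi, 3 GST theta and 4 kappa, omega and zeta genes, 3 MGST, 6 GPX, 6 PRDX, 4 SOD and catalase genes, 2 UGT1, 6 UGT2 and 3 UGT3 and UGT8 genes. 48 members had at least 1 CPM (reads scaled to a common library total and further scaled between libraries) in at least 2 libraries and were tested, and Gstp3, Mgst2 and Ugt2b35 did not reach that level.

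Whole-kidney RNA was sequenced in 7 libraries of male C57BL/6 mice that were 8 to 10 weeks old at the start, per the labels, and the doses and times below are those of the study's methods. The control group C holds 3 libraries (replicates 2, 8 and 9) of nondiabetic mice, which received the citrate solvent. The DM-22 group holds 2 libraries of mice made diabetic with streptozotocin, a toxin of the insulin-producing beta cells, at 60 mg/kg on 5 days, and kept hyperglycemic until week 22. The DM+SGLT2i group holds 2 libraries of mice with the same diabetes that drank dapagliflozin, an inhibitor of the proximal tubule glucose carrier SGLT2, at 25 mg/kg for 6 weeks after 16 weeks of diabetes. All groups were compared at 22 weeks. The study's methods name mice of both sexes, whereas the labels give males. The model is chemical diabetes in 1 inbred strain, and whole kidney mixes all nephron segments, so that fewer cells of a type and less RNA per cell cannot be told apart. The labels do not say how the libraries relate to mice beyond separate replicate numbers, so p-values measure the spread between these libraries.

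These enzymes remove oxidants and electrophiles. Superoxide dismutases turn superoxide into hydrogen peroxide, which catalase, glutathione peroxidases and peroxiredoxins then reduce to water. Glutathione transferases join glutathione to reactive compounds, and UDP-glucuronosyltransferases join glucuronic acid to drugs, steroids and bilirubin, which makes them soluble for excretion in bile and urine. The proximal tubule carries much of this chemistry in the kidney and secretes plasma glutathione peroxidase, the product of Gpx3, into the blood. Many of these genes respond to the transcription factor NRF2 through the antioxidant response element, a short DNA motif.

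Control replicate 2 stood apart from the other controls, on the side of the diabetic libraries in Cdkn1a and injury markers, and it is used as labelled, although whether its label is right could not be checked. Each comparison is therefore given with all 3 controls and with controls 8 and 9. In 48 of 48 tested members it lay outside the range of replicates 8 and 9, as it did in 90.6% of all 13976 genes tested. It was above both in 35 members and below both in 13. Its median distance from their mean was 0.58 on the log2 scale over the members, against 0.07 between replicates 8 and 9, and over all genes the same distances were 0.39 and 0.11. It was more than 2-fold away in 14 members, or 29.2%, against 15.1% of all genes. Its summed level of 7 tubular injury markers was 6309 CPM, against 767 to 935 CPM in controls 8 and 9, 1948 to 2136 CPM in DM-22 and 2928 to 3170.1 CPM in DM+SGLT2i. Its 16 proximal tubule markers summed to 13878 CPM, against 40163 to 42761 CPM in the other controls, and its 8 macrophage markers to 1348 CPM, against 356 to 371 CPM. The 2 DM-22 libraries also differed from each other: replicate 1 held 26113 CPM of proximal tubule and 13365 CPM of thick ascending limb markers (5 genes), and replicate 2 held 44552 and 3519 CPM. Kidney markers were present throughout, with Umod between 2337 and 6933 CPM and Slc5a2 between 169 and 929.6 CPM. The 6 genes of the liver list summed to between 250.2 and 1029 CPM, highest in control replicate 2, with Alb at up to 14.4 CPM, Ttr at up to 638 CPM and Serpina1a at up to 573 CPM. Depth ran from 46456125 to 56541594 reads on the listed genes, and 1 read was worth between 0.0180 and 0.0231 CPM.

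Together the members took between 3.32% and 5.35% of the CPM of a library. Gpx3 alone gave between 53.6% and 71.1% of that, and the other members summed to between 13280.2 and 17324 CPM. Divided by the joined length of all annotated exons of a gene, the order of mean levels was Gpx3 at 15690.2 CPM per kb, Gpx1 at 1362, Gstm1 at 538, Prdx5 at 532, Gpx4 at 504, Ugt3a2 at 502, Cat at 423 and Gsta2 at 346 CPM per kb. That length covers the exons of every annotated transcript and can exceed that of the transcripts made, so the order depends on the annotation. Gstm1, Prdx5, Gpx4 and Ugt3a2 lay between 502 and 538 CPM per kb while each ranged between 1.59-fold and 2.79-fold over the libraries, so that their order is not resolved. In the text below, values are CPM per library, control values run in the order of replicates 2, 8 and 9, and diabetic values in the order of replicates 1 and 2. Differences are on the scale of log2(CPM + 0.5), which understates the change of genes near 0.5 CPM.

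With all 3 controls, no member passed the adjusted threshold of 0.05 in limma in any comparison. Of all 13976 genes, 0% passed in DM-22 against C (smallest adjusted p 0.804), 0% in DM+SGLT2i against C, 0% in DM+SGLT2i against DM-22 and 0% in the 4 diabetic libraries against C. At an unadjusted p under 0.05, 0 members were higher and 0 lower in DM-22 than in C, where 1.19% and 3.28% of all genes were. In DM+SGLT2i against C, 0 were higher and 1, Gstt2, was lower, against 0.665% and 0.415% of all genes. In the diabetic libraries together, 1 member, Gsta3, was higher and 0 were lower, against 0.658% and 1.38%. The 4 diabetic libraries lay above every control in 1 member, Gsta3, which 1.31% of all genes did, and below every control in 0 members, which 1.38% of all genes did.

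With controls 8 and 9, members were mostly higher in the diabetic kidneys, and so they were in control replicate 2. In DM-22, 13 of the 48 were higher and 2 lower at an unadjusted p under 0.05, against 10.4% and 14.8% of all genes. In DM+SGLT2i, 14 were higher and 3 lower, against 8.73% and 9.14%. In the diabetic libraries together 15 were higher and 2 lower, against 10.4% and 14.5%. No member passed the adjusted threshold in DM-22, where 0.0143% of all genes did, and 1, Gsta1, passed in DM+SGLT2i, where 0.122% did. In the diabetic libraries together 0 members passed, against 0.2% of genes. The diabetic libraries lay above both controls in 17 members and below both in 2, against 15.1% and 20.8% of all genes. The median difference over members was 0.36 in DM-22 and 0.25 in DM+SGLT2i, beside 0.0056 and -0.022 over all genes. With all 3 controls the same medians were 0.24 and 0.17, beside 0.0045 and -0.013, and without DM+SGLT2i replicate 2 the median in DM+SGLT2i was 0.0030. Both comparisons use the same controls. Against the mean of controls 8 and 9, the median over members was 0.45 in control replicate 2. That exceeded every diabetic library, at 0.22 and 0.43 in DM-22 and 0.12 and 0.38 in DM+SGLT2i. In DM-22, 38 of 48 differences were positive with controls 8 and 9 and 41 with all 3, beside 50.6% and 50.7% of all genes. For DM+SGLT2i these were 37 and 34, beside 47.3% and 47.2%. The sign of the difference depended on the choice of controls in 9 members in DM-22 and 5 in DM+SGLT2i. Genes of the circadian clock, which are not members, also differed, with control replicate 2 on the control side in Arntl but not in the sum of the list. The 11 listed clock genes summed to 909 CPM in control replicate 2 and to 1307 and 1330 CPM in controls 8 and 9. Their sums were 821 and 670 CPM in DM-22 and 971 and 715 CPM in DM+SGLT2i. Arntl read 1.21, 1.77 and 1.62 CPM in C, 6.48 and 19.4 CPM in DM-22 and 5.07 and 8.69 CPM in DM+SGLT2i. Of 11 tested clock genes, 2 were higher and 4 lower in DM-22 than in all 3 controls at an unadjusted p under 0.05. The shares of all genes were 1.19% and 3.28%, and the part of the clock in the member differences was not tested.

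**Figure D1:**
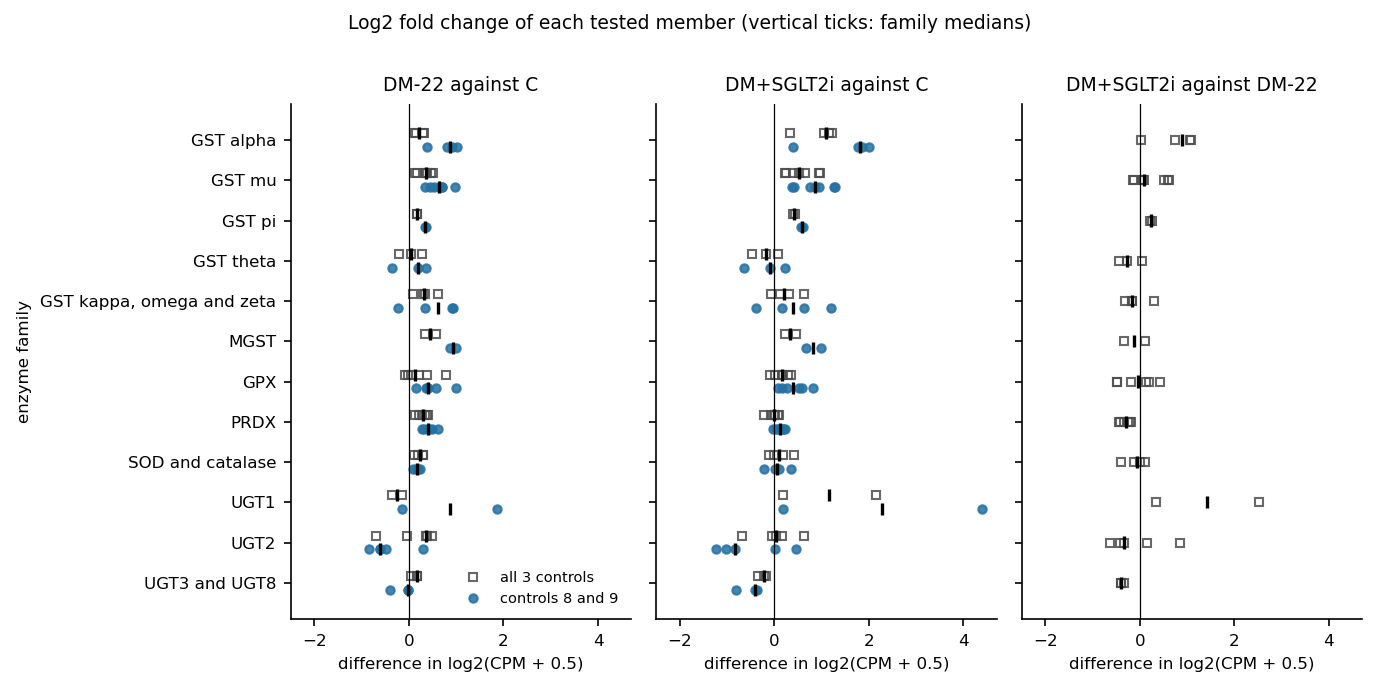
Difference in log2(CPM + 0.5) of each of the 48 tested members, by enzyme family, for 3 comparisons. Open squares use all 3 controls and filled circles controls 8 and 9 (the right panel uses all 3 in the fit), and vertical ticks mark family medians. In GST alpha the median in DM+SGLT2i against C was 1.10 with all 3 controls and 1.81 with controls 8 and 9.

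Between the diabetic groups, 0 members passed the adjusted threshold, with either set of controls in the fit, and 0% of all genes did. At an unadjusted p under 0.05, 0 members were higher and 0 lower in DM+SGLT2i than in DM-22 with all 3 controls, against 2.25% and 1.66% of all genes. With controls 8 and 9 in the fit, Gsta1 and Gsta2 were higher and Ugt8a was lower, against 6.86% and 3.89% of all genes. Of all genes, 50.6% had a positive difference. So had 4 of 4 GST alpha, 2 of 2 GST pi and 2 of 2 UGT1 genes (medians 0.90, 0.24 and 1.42), the smallest alpha difference being 0.014. By contrast, 6 of 6 PRDX genes and 3 of 3 UGT3 and UGT8 genes had a negative one (medians -0.30 and -0.40). These families are named because all their tested genes went the same way, and related genes with shared sequence are not separate observations. The median over all 48 members was -0.12, and its sign depended on the filter and on DM+SGLT2i replicate 1. No gene of these families passed the unadjusted threshold with all 3 controls.

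**Figure D2:**
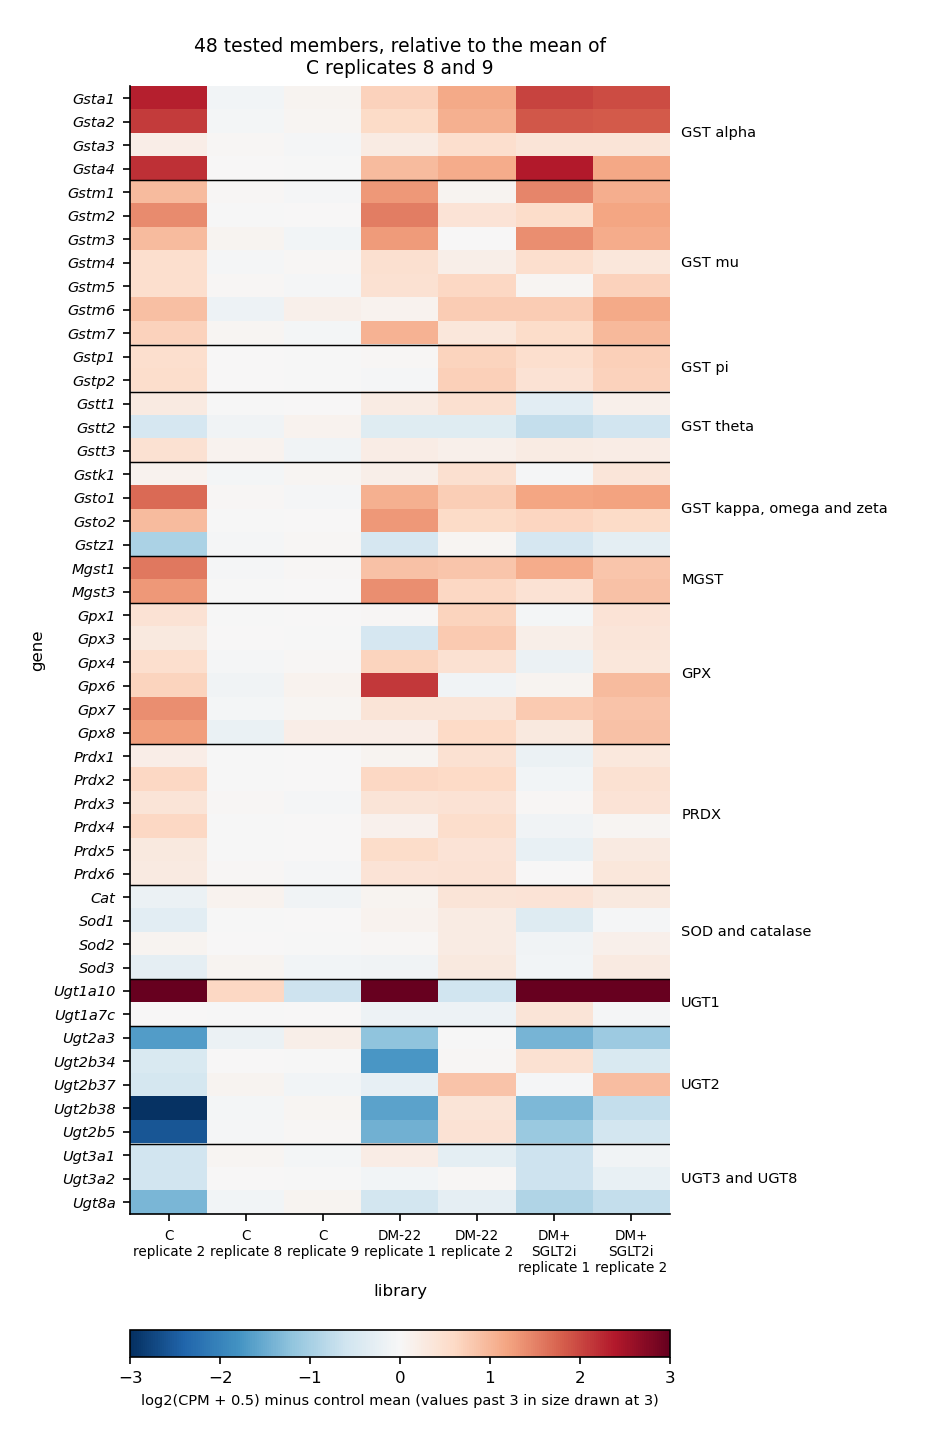
Each cell is log2(CPM + 0.5) of a gene in 1 library minus the mean of C replicates 8 and 9, for the 48 tested members ordered by family. Red is higher, blue lower, and values past 3 in size are drawn at 3. C replicate 2, labelled a control, is coloured in most rows, with 10 members more than 2-fold higher and 4 more than 2-fold lower on this scale.

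The alpha class of glutathione transferases conjugates electrophiles and reduces lipid peroxides, and Gsta1 was the 1 member to pass the adjusted threshold, in DM+SGLT2i against controls 8 and 9. Gsta1 (chromosome 9, 78230656 to 78242684, plus strand, mm10) read 393, 73.6 and 83.4 CPM in C, 126 and 174 CPM in DM-22 and 323 and 306 CPM in DM+SGLT2i. Controls 8 and 9 were lowest, both DM+SGLT2i libraries stood above both DM-22 libraries, and control replicate 2 was above all. Against controls 8 and 9 (mean 78.5 ± 6.94 CPM, SD, n = 2), the difference in DM+SGLT2i was 2.00 (SE 0.18, adjusted p = 0.0490) and that in DM-22 was 0.92 (SE 0.18, adjusted p = 0.0904). With all 3 controls these were 1.22 (SE 0.70, adjusted p = 0.9997) and 0.14 (SE 0.70, adjusted p = 0.973). DM+SGLT2i exceeded DM-22 by 1.08 (SE 0.76, adjusted p = 0.881) with all 3 controls in the fit and by the same amount with controls 8 and 9 (SE 0.18, adjusted p = 0.446). The libraries high in Gsta1 were also those with a higher sum of the tubular injury markers given above, with the same order of control replicate 2, DM+SGLT2i, DM-22 and controls 8 and 9. Within each diabetic pair, however, the library with more Gsta1 had the lower sum. Spp1 made most of the sum, 4898 of 6309 CPM in control replicate 2. Singly, Spp1, Clu, Vcam1 and Havcr1 followed the order of groups, and Lcn2, Krt20 and Cdkn1a did not. The part of these markers in the result was not tested.

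Gsta2 (chromosome 9, 78331018 to 78355788, minus strand), the neighbouring alpha gene, read 715, 159 and 174 CPM in C, 246 and 346 CPM in DM-22 and 610.2 and 601 CPM in DM+SGLT2i. It followed Gsta1 library by library: the ratio of Gsta2 to Gsta1 stayed between 1.82 and 2.16, while the genes themselves ranged 4.49-fold and 5.34-fold. Its difference in DM+SGLT2i against controls 8 and 9 was 1.86 (SE 0.19, adjusted p = 0.0531). The genes share sequence, and reads may have been split between them: 90.5% of the stretches of 50 bases in Gsta1 transcripts also occur in another gene, most often Gm3776, and 49.8% of those in Gsta2, most often in Gsta1. Another listed alpha-like gene, Gm10639, also ran with them, at 344, 61.2 and 72.0 CPM in C, 106 and 156 CPM in DM-22 and 273 and 266 CPM in DM+SGLT2i.

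Gsta3 (chromosome 1, 21240589 to 21265661, plus strand) varied less, at 144, 129 and 122 CPM in C, 149 and 178 CPM in DM-22 and 163 and 165 CPM in DM+SGLT2i. Its 4 diabetic libraries lay above all 3 controls, though the lowest was close to control replicate 2. The difference of the diabetic libraries from the 3 controls was 0.31 (SE 0.12, past the unadjusted threshold, adjusted p = 0.988). Gsta4, whose product favours the lipid peroxidation product 4-hydroxynonenal, read 115, 25.2 and 24.6 CPM in C, 48.5 and 54.3 CPM in DM-22 and 131 and 56.6 CPM in DM+SGLT2i, so that 1 DM+SGLT2i library stood apart from the other.

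The RefSeq promoters of the 3 alpha genes are shown because Gsta1 and Gsta2 moved together and Gsta3 was the member above every control. Each is the 250 bases before the RefSeq start (GRCm38.p6, the mm10 assembly), written 5′ to 3′ on the gene's strand. Capitals mark matches, on either strand, to 3 motifs, where N is any base. They are the antioxidant response element core TGACNNNGC, the AP-1-like pattern TGANTCA and the xenobiotic response element core TNGCGTG bound by the aryl hydrocarbon receptor.
Gsta1, chr9:78230419-78230668, plus strand: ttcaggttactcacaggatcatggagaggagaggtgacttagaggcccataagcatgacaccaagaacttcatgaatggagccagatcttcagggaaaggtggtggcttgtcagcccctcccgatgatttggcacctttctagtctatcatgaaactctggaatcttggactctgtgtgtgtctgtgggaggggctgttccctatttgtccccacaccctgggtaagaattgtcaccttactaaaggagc
Gsta2, chr9:78347146-78347395, minus strand: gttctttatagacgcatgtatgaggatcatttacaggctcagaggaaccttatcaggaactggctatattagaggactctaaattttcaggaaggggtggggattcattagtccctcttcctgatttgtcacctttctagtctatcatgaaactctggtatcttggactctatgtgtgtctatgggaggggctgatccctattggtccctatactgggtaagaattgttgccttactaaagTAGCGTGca
Gsta3, chr1:21240335-21240584, plus strand: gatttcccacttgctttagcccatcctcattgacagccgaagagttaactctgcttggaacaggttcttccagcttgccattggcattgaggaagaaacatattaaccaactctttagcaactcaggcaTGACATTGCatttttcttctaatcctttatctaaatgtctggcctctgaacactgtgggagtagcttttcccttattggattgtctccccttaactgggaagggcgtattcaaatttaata
The Gsta3 window held 1 antioxidant response element core, starting 121 bases before the start, the Gsta2 window 1 xenobiotic response element core, starting 9 bases before it, and the Gsta1 window no match. The RefSeq start of Gsta2 lies 8643 bases inside the GENCODE gene, whose annotated start is further upstream. The windows of Gsta1 and Gsta2 aligned over 239 bases, of which 77.0% were identical.

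The mu class is a cluster of genes on chromosome 3 with broad substrate range. Gstm1, its highest member, read 869, 459 and 442 CPM in C, 1105 and 478 CPM in DM-22 and 1233 and 964 CPM in DM+SGLT2i. DM-22 replicate 1 was near the DM+SGLT2i libraries and replicate 2 near controls 8 and 9, so the DM-22 pair spread more than its distance from the controls. Its difference in DM+SGLT2i was 1.28 (SE 0.40, adjusted p = 0.198) against controls 8 and 9 and 0.96 (SE 0.45, adjusted p = 0.9997) against all 3. Gstm3 ran in step with it, at 34.2, 18.5 and 16.6 CPM in C, 43.0 and 17.7 CPM in DM-22 and 47.2 and 38.2 CPM in DM+SGLT2i. The ratio of Gstm1 to Gstm3 stayed between 24.8 and 27.0 over the 7 libraries, whereas that of Gstm1 to Gstm2 ran from 8.55 to 22.4. Gstm3 shares 28.8% of its stretches of 50 bases with other genes, Gstm1 among them. Gstm7 read 15.4, 9.68 and 8.89 CPM in C, 19.7 and 11.9 CPM in DM-22 and 13.8 and 18.6 CPM in DM+SGLT2i, with the 4 diabetic libraries above controls 8 and 9. Against controls 8 and 9, 7 of 7 mu genes had a positive difference in both diabetic groups, with medians of 0.65 and 0.86. 2 of them (Gstm2 and Gstm7) passed the unadjusted threshold in DM-22 and 5 (Gstm1, Gstm3, Gstm4, Gstm6 and Gstm7) in DM+SGLT2i, where 10.4% and 8.73% of all genes were higher at that threshold and 50.6% and 47.3% had a positive difference. The 7 differences were also positive with all 3 controls, and 0 passed. The others ranged from 37.1 to 110.4 CPM in Gstm2, 12.3 to 18.02 CPM in Gstm4, 105 to 175 CPM in Gstm5 and 1.79 to 5.04 CPM in Gstm6.

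The pi class is made of the closely related Gstp1 and Gstp2 and the scarce Gstp3. Gstp1 read 449, 317 and 313 CPM in C, 321 and 502 CPM in DM-22 and 446 and 514 CPM in DM+SGLT2i, and the 4 diabetic libraries all exceeded controls 8 and 9, the lowest by a small margin. The difference in DM+SGLT2i against controls 8 and 9 was 0.60 (SE 0.24, adjusted p = 0.270). Gstp2 held a steady share, with a ratio of Gstp1 to Gstp2 of 1.63 to 1.74, and 54.3% of its stretches of 50 bases occur in other genes, mostly Gstp1. Gstp3 was between 0.168 and 1.06 CPM.

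In the theta class, Gstt2 went the opposite way to most members. It read 148, 196 and 223 CPM in C, 162 and 161 CPM in DM-22 and 126 and 139.9 CPM in DM+SGLT2i. Both DM+SGLT2i libraries were the lowest of the 7, and control replicate 2 lay between the diabetic groups. The difference in DM+SGLT2i was -0.49 against all 3 controls (SE 0.19, past the unadjusted threshold, adjusted p = 0.9997) and -0.65 against controls 8 and 9 (SE 0.13, adjusted p = 0.116). In DM-22 it was -0.37 (SE 0.13, adjusted p = 0.163) against controls 8 and 9. Its neighbour Gstt1 read 158, 129.6 and 133 CPM in C, 156 and 183 CPM in DM-22 and 105 and 145 CPM in DM+SGLT2i, and DM+SGLT2i differed from DM-22 by -0.45 (SE 0.21, adjusted p = 0.881). Gstt3 stayed between 4.15 and 6.36 CPM.

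Gsto1, an omega transferase that reduces dehydroascorbate and methylated arsenic, was among the most separated members. It read 96.7, 30.1 and 28.7 CPM in C, 62.1 and 49.3 CPM in DM-22 and 67.6 and 68.1 CPM in DM+SGLT2i. The 4 diabetic libraries were well above controls 8 and 9 and below control replicate 2. Against controls 8 and 9 the differences were 0.90 in DM-22 (SE 0.14, adjusted p = 0.0826) and 1.19 in DM+SGLT2i (SE 0.14, adjusted p = 0.0685), and with all 3 controls 0.33 (SE 0.51) and 0.63 (SE 0.51). Gsto1 and Gsto2 lie inside Cfap43 on the opposite strand, and whether the counting used strand is not given in the sources used here. Gstz1, the zeta enzyme that breaks down tyrosine as maleylacetoacetate isomerase, read 189.6, 358 and 374 CPM in C, 256 and 379 CPM in DM-22 and 259.5 and 301 CPM in DM+SGLT2i, with control replicate 2 lowest. Gsto2 was scarce, between 0.737 and 2.59 CPM. Gstk1, a mitochondrial and peroxisomal transferase, varied 1.45-fold, at 62.4, 55.6 and 59.5 CPM in C, 65.5 and 80.5 CPM in DM-22 and 55.9 and 74.0 CPM in DM+SGLT2i.

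Mgst1, a membrane-bound transferase and peroxidase, had a similar pattern to Gsto1. It read 136, 43.9 and 46.7 CPM in C, 84.0 and 81.1 CPM in DM-22 and 98.8 and 80.9 CPM in DM+SGLT2i. The diabetic libraries clustered within a narrow band above controls 8 and 9 and below control replicate 2. The differences from controls 8 and 9 were 0.86 in DM-22 (SE 0.14, adjusted p = 0.0826) and 0.98 in DM+SGLT2i (SE 0.14, adjusted p = 0.0749), and from all 3 controls 0.34 (SE 0.48) and 0.45 (SE 0.48). Mgst3 read 195, 78.7 and 79.8 CPM in C, 208 and 122 CPM in DM-22 and 107 and 147 CPM in DM+SGLT2i, a difference in DM-22 of 1.01 from controls 8 and 9 (SE 0.28, adjusted p = 0.117). Mgst2 was under 0.275 CPM in 6 libraries and at 1.68 CPM in DM+SGLT2i replicate 1, the library that also held 168 CPM of 7 urothelium and papilla markers against 2.47 to 84.3 CPM in the others. The same library held 403 CPM of 5 adipose tissue markers against 33.4 to 79.0 CPM in the others, and control replicate 2, with the next highest urothelium sum, had Mgst2 at 0.275 CPM. The part of these in the value was not tested. The Mgst1 promoter is shown, in the form used above, because the diabetic libraries all exceeded controls 8 and 9 in this gene and its window also held an antioxidant response element core. The match, on the reverse strand, is in capitals and starts 56 bases before the RefSeq start used, which lies 211 bases inside the GENCODE gene, so that the match is within the gene as annotated there.
Mgst1, chr6:138140277-138140526, plus strand: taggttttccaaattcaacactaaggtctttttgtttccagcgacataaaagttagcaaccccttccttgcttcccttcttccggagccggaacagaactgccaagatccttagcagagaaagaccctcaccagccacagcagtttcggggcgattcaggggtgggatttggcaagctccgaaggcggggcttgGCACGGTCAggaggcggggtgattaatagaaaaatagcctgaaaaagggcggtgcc
Mgst1 has a second RefSeq start further downstream, and the window shown is that of the first.

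**Figure D3:**
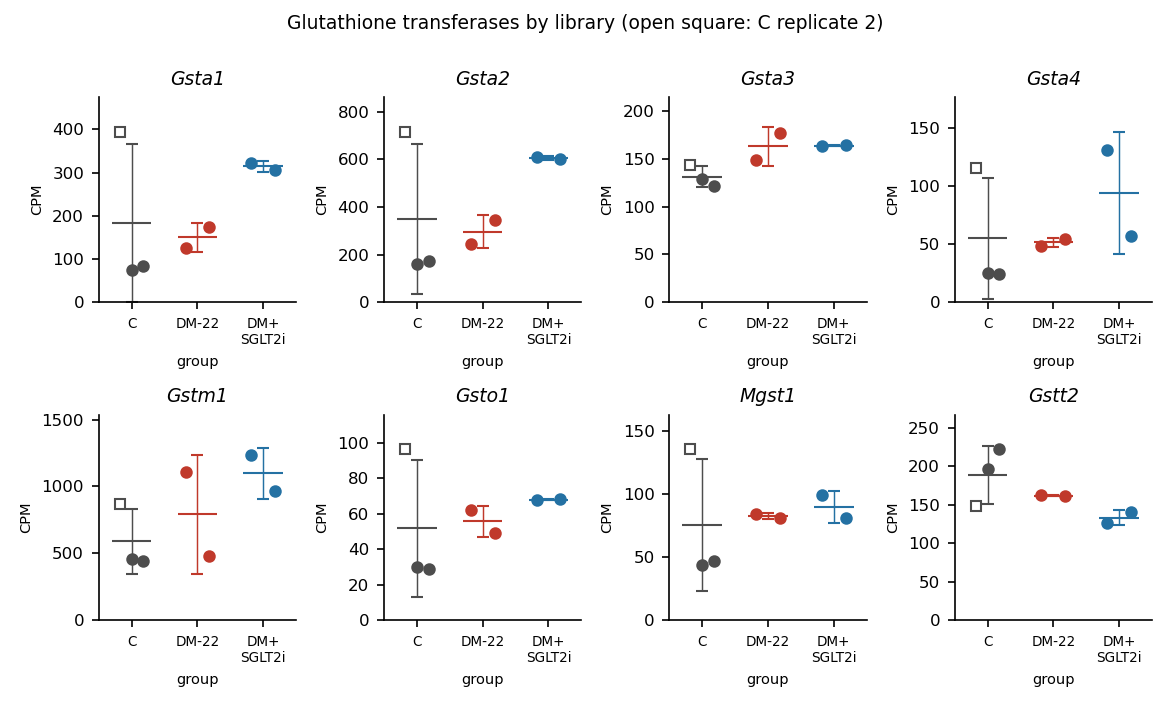
CPM of 8 glutathione transferase genes by library, with points for single libraries, horizontal bars for group means, vertical bars for SD and the open square for C replicate 2. In Gsta1, Gsta2, Gsto1 and Mgst1 the 4 diabetic libraries lie between controls 8 and 9 and control replicate 2, and in Gstt2 both DM+SGLT2i libraries are lowest.

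Glutathione peroxidases use glutathione to reduce peroxides, and several are selenoproteins. Gpx3 (chromosome 11, 54902453 to 54910377, plus strand) was the most abundant member, at 30139, 25026 and 24411 CPM in C, 17461 and 42648 CPM in DM-22 and 27702 and 31738 CPM in DM+SGLT2i. The DM-22 libraries were the lowest and the highest of the 7, and all other libraries lay between them. The difference in DM-22 was 0.05 with an SE of 0.88 (adjusted p = 0.991), and a change of this size could not be resolved. The DM-22 library with less Gpx3 is the one with fewer proximal tubule and more thick ascending limb transcripts given above, but control replicate 2, with the lowest proximal tubule sum of all at 13878 CPM, had more Gpx3 than controls 8 and 9. The part of this in the result was not tested. Gpx1 read 2266, 1649.6 and 1679 CPM in C, 1695 and 2658 CPM in DM-22 and 1591 and 2204 CPM in DM+SGLT2i. Gpx4, which reduces lipid hydroperoxides in membranes, read 1015, 697 and 727 CPM in C, 1128 and 979 CPM in DM-22 and 627 and 905 CPM in DM+SGLT2i, a difference in DM-22 of 0.56 from controls 8 and 9 (SE 0.24, adjusted p = 0.212). Gpx6 ranged from 33.7 to 159 CPM, with DM-22 replicate 2 lowest and replicate 1 highest. Gpx7 and Gpx8, peroxidases of the endoplasmic reticulum, were between 0.926 and 3.43 CPM and between 5.73 and 16.7 CPM, with control replicate 2 highest in both. Of the GPX genes, 6 of 6 had a positive difference in both diabetic groups against controls 8 and 9, where 50.6% and 47.3% of all genes did. With all 3 controls 4 of 6 were positive in DM-22 and 5 of 6 in DM+SGLT2i, beside 50.7% and 47.2% of all genes. Against controls 8 and 9, 1, Gpx7 in DM+SGLT2i, passed the unadjusted threshold, where 8.73% of all genes were higher.

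Peroxiredoxins reduce peroxides through a cysteine that, in most of them, thioredoxin restores. Prdx5, found in mitochondria, peroxisomes and cytosol, was the highest, at 1203, 975 and 994 CPM in C, 1436 and 1317 CPM in DM-22 and 849.6 and 1193 CPM in DM+SGLT2i. Both DM-22 libraries exceeded every control, and DM+SGLT2i replicate 1 was below every control. The difference between DM+SGLT2i and DM-22 was -0.45 (SE 0.27, adjusted p = 0.881). Prdx6, which also has phospholipase activity, read 245, 208 and 199 CPM in C, 271 and 275 CPM in DM-22 and 205 and 256 CPM in DM+SGLT2i, and DM-22 differed from controls 8 and 9 by 0.42 (SE 0.15, adjusted p = 0.165) and from all 3 by 0.33 (SE 0.17, adjusted p = 0.804). Prdx4, the form of the endoplasmic reticulum, read 28.3, 17.98 and 18.4 CPM in C, 19.8 and 26.5 CPM in DM-22 and 17.0 and 18.9 CPM in DM+SGLT2i, with control replicate 2 highest. In the whole family, 6 of 6 genes had a positive difference in DM-22 with either set of controls, and 3 of them (Prdx2, Prdx3 and Prdx6) passed the unadjusted threshold with controls 8 and 9, where 50.6% of all genes were positive and 10.4% passed on the higher side. Prdx1 ranged from 678 to 1047 CPM, Prdx2 from 178 to 290.2 CPM and Prdx3 from 174 to 239 CPM. The family sum was 2872, 2330.3 and 2339 CPM in C, 3058 and 3187 CPM in DM-22 and 2109.7 and 2904 CPM in DM+SGLT2i, so that the DM+SGLT2i pair spanned the range of the controls.

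Superoxide dismutases and catalase varied at most 1.56-fold over the libraries. Cat, the peroxisomal catalase, read 874, 1068 and 915 CPM in C, 1044 and 1299 CPM in DM-22 and 1316 and 1212 CPM in DM+SGLT2i. Both DM+SGLT2i libraries were above the 3 controls, one DM-22 library was not, and the difference in DM+SGLT2i was 0.41 (SE 0.22, adjusted p = 0.9997). Sod1, the cytosolic copper and zinc enzyme, read 424, 528 and 528 CPM in C, 572 and 629.8 CPM in DM-22 and 405 and 513 CPM in DM+SGLT2i. Both DM-22 libraries exceeded and both DM+SGLT2i libraries were below controls 8 and 9, while control replicate 2 lay near the lower DM+SGLT2i library. DM+SGLT2i differed from DM-22 by -0.40 (SE 0.22, adjusted p = 0.881). Sod2, the mitochondrial enzyme, stayed between 321 and 411 CPM, and Sod3, the extracellular one, between 567 and 838 CPM.

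**Figure D4:**
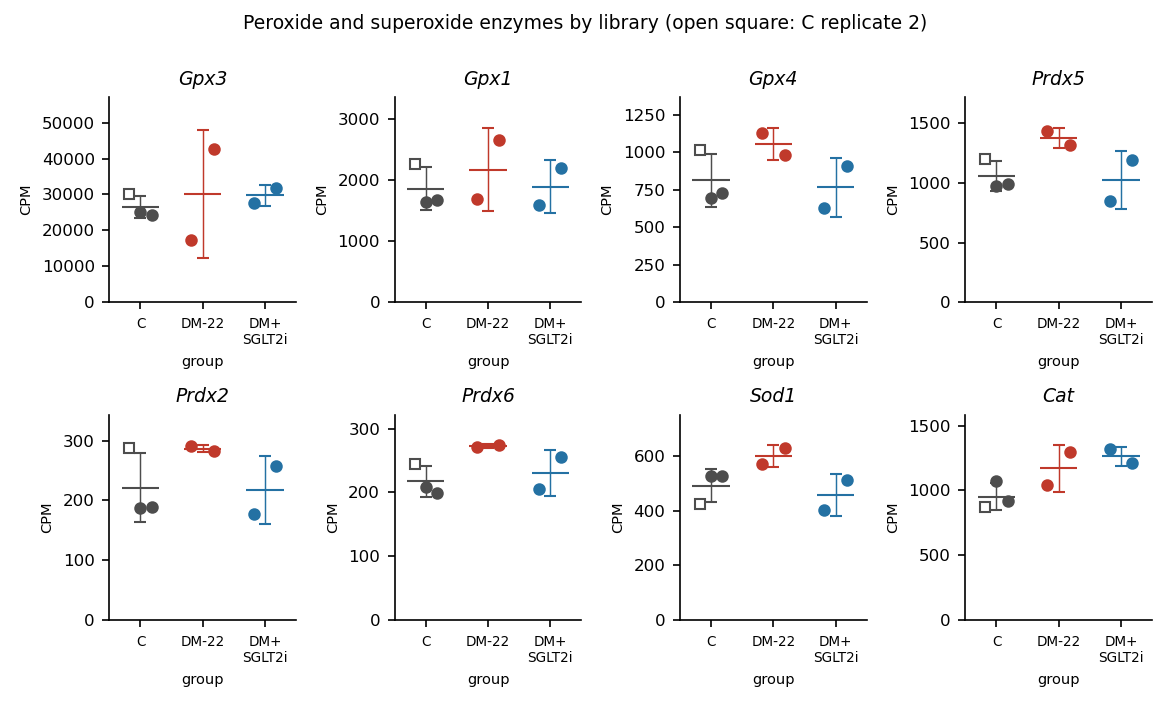
CPM of 8 peroxide and superoxide enzymes by library, with single libraries as points, group means as horizontal bars, SD as vertical bars and C replicate 2 as an open square. The DM-22 libraries hold both the lowest and the highest Gpx3 value, and in Prdx5, Prdx2, Prdx6 and Sod1 both DM+SGLT2i libraries are below both DM-22 libraries.

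The UGT1 locus makes many enzymes from alternative first exons joined to shared last exons. The listed genes hold 2 of them, Ugt1a10 and Ugt1a7c, which overlap on the same strand of chromosome 1 and share 63.0% and 53.6% of their stretches of 50 bases with other genes, so their reads cannot be assigned with confidence. Ugt1a10 had the widest range among tested members, 245-fold, at 240.5, 3.03 and 0.983 CPM in C, 45.7 and 1.02 CPM in DM-22 and 57.0 and 39.5 CPM in DM+SGLT2i. It was high in control replicate 2, DM-22 replicate 1 and both DM+SGLT2i libraries and near 1 to 3 CPM in the other 3. In sum, the 4 high libraries also held more of the thick ascending limb markers, 4819 to 13365 CPM against 3519 to 4173 CPM. They held less of the proximal tubule markers, 13878 to 29508 CPM against 40163 to 44552 CPM. Sums were higher for tubular injury markers (2136 to 6309 CPM against 767 to 1948 CPM) and macrophage markers (649.7 to 1348 CPM against 356 to 533 CPM). Endothelial and adipose tissue sums also split the libraries this way, whereas the podocyte and distal convoluted tubule sums did not. The same split was seen in the sum of the 6 genes of the liver list, at 386 to 1029 CPM against 250.2 to 269 CPM. Among them Serpina1a split in this way, at 267 to 573 CPM against 21.8 to 160 CPM, and Alb, Ttr and Apoa2 did not. The 7 urothelium and papilla markers summed to 9.34 to 168 CPM against 2.47 to 6.76 CPM. The part of all these lists in the result was not tested. The difference in DM+SGLT2i was 4.39 against controls 8 and 9 (SE 1.498, adjusted p = 0.222) and 2.15 against all 3 (SE 2.34, adjusted p = 0.9997). Ugt1a7c stayed near the filter, at 1.01, 0.968 and 1.004 CPM in C, 0.846 and 0.832 CPM in DM-22 and 1.45 and 0.957 CPM in DM+SGLT2i.

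The UGT2 genes form a cluster on chromosome 5, and their products act on steroids and bile acids. Ugt2b38 (87409942 to 87424203, minus strand) read 102, 773 and 827 CPM in C, 264 and 1040.2 CPM in DM-22 and 316 and 484 CPM in DM+SGLT2i. Control replicate 2 was lowest, DM-22 replicate 1 and the DM+SGLT2i libraries were intermediate, and DM-22 replicate 2 was highest. Ugt2b5 had the same order of libraries, from 26.1 to 215 CPM, and the ratio of Ugt2b38 to Ugt2b5 kept to between 3.92 and 5.07 while the genes ranged 10.2-fold and 8.26-fold. They share 37.4% and 41.7% of their stretches of 50 bases with other genes, mostly each other. The difference of Ugt2b38 in DM+SGLT2i was -1.03 against controls 8 and 9 (SE 0.62, adjusted p = 0.425) and -0.04 against all 3 (SE 1.01, adjusted p = 0.9997). The summed proximal tubule markers had a like order, with 13878 CPM in control replicate 2, 24534 and 29508 CPM in DM+SGLT2i, 26113 CPM in DM-22 replicate 1 and 44552 CPM in replicate 2, and their part in the result was not tested.

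The promoters of this pair are shown because the genes ran together over the widest range among pairs compared here, in the same form as above.
Ugt2b38, chr5:87424204-87424453, minus strand: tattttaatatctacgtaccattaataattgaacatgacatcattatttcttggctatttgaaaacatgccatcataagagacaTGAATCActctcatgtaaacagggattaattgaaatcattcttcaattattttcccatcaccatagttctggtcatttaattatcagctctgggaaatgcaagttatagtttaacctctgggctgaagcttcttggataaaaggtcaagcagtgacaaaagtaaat
Ugt2b5, chr5:87140341-87140590, minus strand: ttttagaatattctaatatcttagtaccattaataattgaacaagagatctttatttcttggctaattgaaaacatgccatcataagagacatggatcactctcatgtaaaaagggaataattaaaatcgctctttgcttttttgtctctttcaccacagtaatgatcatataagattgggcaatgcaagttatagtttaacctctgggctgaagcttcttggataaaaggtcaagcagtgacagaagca
They aligned over 240 bases with 88.3% identity. The window of Ugt2b37 was more like that of Ugt2b38, with 94.9% identity over 236 bases, yet Ugt2b37 ranged 2.76-fold and did not have the same order of libraries. The Ugt2b38 window held 1 match to the AP-1-like pattern, TGAATCA, starting 166 bases before the start, and that of Ugt2b5 none of the 3 motifs.

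Ugt2b34 read 22.3, 31.1 and 30.4 CPM in C, 8.84 and 31.6 CPM in DM-22 and 42.5 and 22.3 CPM in DM+SGLT2i, and DM-22 replicate 1 was lowest. Ugt2b37, for which DM-22 replicate 2 and DM+SGLT2i replicate 2 were highest, ranged from 72.3 to 199.7 CPM. Ugt2a3 was scarce, at 0.110, 1.22 and 1.69 CPM in C, 0.342 and 1.43 CPM in DM-22 and 0.235 and 0.415 CPM in DM+SGLT2i, a difference in DM+SGLT2i of -1.24 against controls 8 and 9 (SE 0.45, adjusted p = 0.239). Ugt2b35 had 0 reads in controls 8 and 9 and in DM-22 replicate 2, and its other values lay between 0.0720 and 0.470 CPM.

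The UGT3 enzymes use other sugars than glucuronic acid, and Ugt8a builds galactosylceramide, a precursor of the sulfatide lipids of tubule cells. Ugt3a2 read 1191, 1798 and 1741 CPM in C, 1674 and 1826 CPM in DM-22 and 1149.8 and 1517 CPM in DM+SGLT2i. Both DM+SGLT2i libraries were below both DM-22 libraries, and the difference between the groups was -0.40 (SE 0.32, adjusted p = 0.881). Ugt3a1 lay between 398 and 716 CPM. Ugt8a read 46.3, 113 and 127 CPM in C, 82.1 and 98.7 CPM in DM-22 and 63.7 and 72.8 CPM in DM+SGLT2i. The 4 diabetic libraries were below controls 8 and 9, the DM+SGLT2i libraries below the DM-22 ones, and control replicate 2 lowest. Its difference was -0.81 in DM+SGLT2i (SE 0.15, adjusted p = 0.101) and -0.41 in DM-22 (SE 0.15, adjusted p = 0.169) against controls 8 and 9, and with all 3 controls it was -0.35 (SE 0.42) and 0.05 (SE 0.42).

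**Figure D5:**
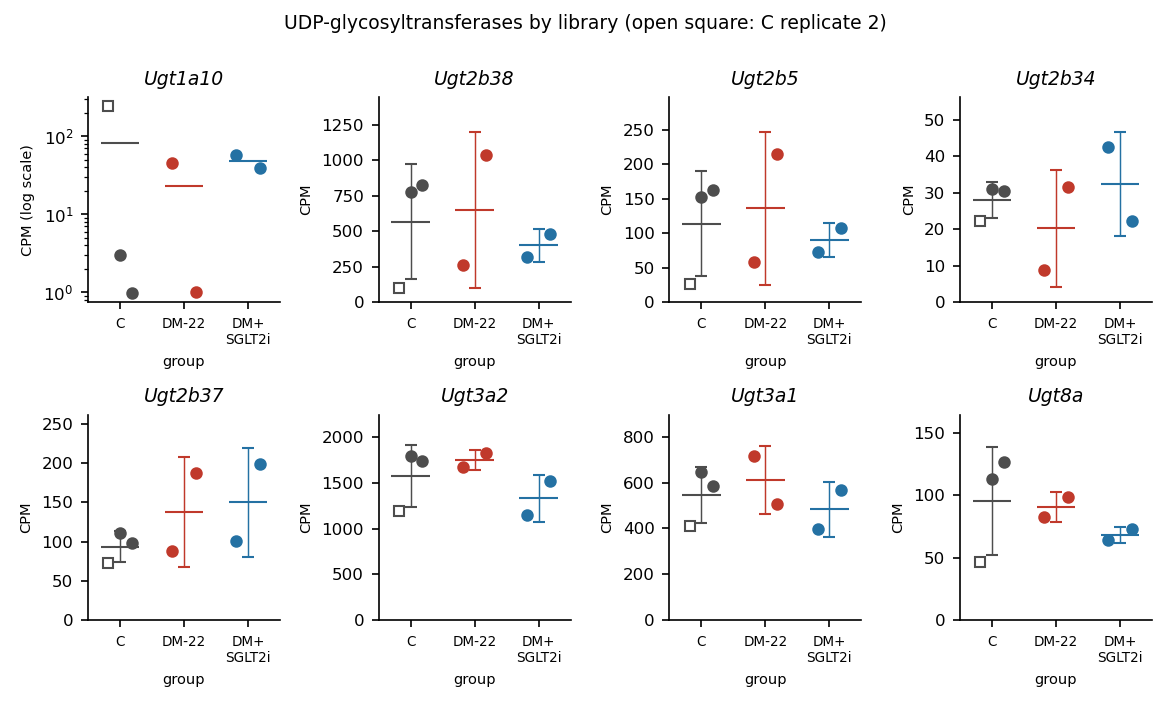
CPM of 8 UDP-glycosyltransferase genes by library (Ugt1a10 on a log scale), with single libraries as points, group means as horizontal bars, SD as vertical bars on linear axes and C replicate 2 as an open square. Ugt1a10 is high in 4 libraries and low in 3, and Ugt2b38 and Ugt2b5 have the same order of libraries.

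Promoter windows were found for 46 of the 51 members (all but Gsta4, Gstt2, Prdx6, Sod3 and Ugt3a2), and motifs were counted over the 300 bases from 250 before to 50 after each RefSeq start. The antioxidant response element core stood in 6 of the 46, Gsta3, Gstm5, Gstm7, Mgst1, Prdx1 and Sod1, which is 13.0% of members against 14.0% of all 27025 genes. AP-1 matches (TGANTCA) stood in 8, Gstm5, Gstp1, Gstp2, Mgst2, Prdx1, Ugt2b35, Ugt2b37 and Ugt2b38, or 17.4% against 8.97%. The middle base was C or G in all but Ugt2b35 (TGATTCA) and Ugt2b38 (TGAATCA). The windows of Gstp1 and Gstp2 were 88.1% identical and those of Ugt2b37 and Ugt2b38 94.9%, so these genes are not separate observations. The xenobiotic response element core stood in 1, Gsta2, or 2.17% against 5.84%. In Prdx1 an antioxidant response element core overlapped an AP-1 match. The members with an antioxidant response element core did not share 1 pattern of levels: Gsta3, Gstm7 and Mgst1 passed the unadjusted threshold in both diabetic groups against controls 8 and 9, and Gstm5, Prdx1 and Sod1 in neither.

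Genes that supply or control these enzymes were taken from 6 lists, whose counts below are to be read against the shares of all genes given above for the same comparisons. With all 3 controls, no list had more than 2 genes past the unadjusted threshold in 1 direction in either diabetic group, and 0 passed the adjusted one. Of 25 tested genes of thiol and NADPH supply, 1 was higher and 1 lower in DM-22 than in controls 8 and 9 at an unadjusted p under 0.05, and 3 were higher and 2 lower in DM+SGLT2i. Glrx5, a mitochondrial glutaredoxin, was the one higher in DM-22 (difference 0.41, SE 0.14, adjusted p = 0.161), and the thioredoxin reductase Txnrd3 the one lower (-0.54, SE 0.14, adjusted p = 0.104). Of 34 other conjugation and phase II enzymes, 9 were higher and 4 lower in each diabetic group. Ephx1, the epoxide hydrolase, read 364, 43.4 and 50.7 CPM in C, 234 and 123 CPM in DM-22 and 206 and 211 CPM in DM+SGLT2i, so that control replicate 2 was highest, as it was for Gsta1. Ces2e, a carboxylesterase, read 69.5, 24.1 and 22.1 CPM in C, 51.3 and 47.7 CPM in DM-22 and 41.6 and 44.8 CPM in DM+SGLT2i. Control replicate 2 was above every diabetic library. Against controls 8 and 9 alone, the diabetic libraries together differed by 0.98 (SE 0.10, adjusted p = 0.0481). Ces2e, and Slc35d1 below, were named for a small p in DM-22 against controls 8 and 9, libraries that this comparison shares.

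Of 12 tested genes of UDP-glucuronate supply and export, 0 were higher and 3 lower in DM-22 and 3 higher and 2 lower in DM+SGLT2i, against controls 8 and 9. Slc35d1, which carries UDP-glucuronic acid into the endoplasmic reticulum where UGT enzymes work, read 33.2, 74.8 and 69.2 CPM in C, 26.6 and 25.5 CPM in DM-22 and 48.6 and 43.9 CPM in DM+SGLT2i. It fell by 1.04 in the diabetic libraries together against controls 8 and 9 (SE 0.10, adjusted p = 0.0467). In DM-22 alone the difference was -1.45 against controls 8 and 9 (SE 0.12, adjusted p = 0.0781). Against all 3 controls the DM-22 difference was smaller, at -1.08 (SE 0.34, adjusted p = 0.804). Of 21 tested regulators, 2 were higher and 8 lower in DM-22 and 1 higher and 3 lower in DM+SGLT2i. Nfe2l2, the gene of NRF2, named after its values were seen, ranged from 95.8 to 127 CPM. Cdkn1a, the p21 gene at the centre of the study, read 72.7, 4.63 and 5.36 CPM in C, 52.6 and 123 CPM in DM-22 and 78.6 and 77.3 CPM in DM+SGLT2i, so that control replicate 2 was again on the diabetic side. The difference of Cdkn1a in DM+SGLT2i was 3.84 against controls 8 and 9 (SE 0.38, adjusted p = 0.0490) and 2.59 against all 3 (SE 1.13, adjusted p = 0.9997). Control replicate 2 was set apart partly for its Cdkn1a level, so the p-value against controls 8 and 9 is no independent evidence for this gene. Of 15 oxidant sources 2 were higher in DM-22 and 4 in DM+SGLT2i, with 0 lower, and Cybb, the NADPH oxidase of phagocytes, read 33.9, 11.3 and 12.8 CPM in C, 16.8 and 15.9 CPM in DM-22 and 19.7 and 19.9 CPM in DM+SGLT2i. The macrophage markers were higher in the same libraries, at 533 to 649.7 CPM in DM-22 and 699 to 824 CPM in DM+SGLT2i, and their part was not tested. Of 15 genes of selenoprotein synthesis, 1 was higher and 5 lower in DM-22, and Secisbp2l, a factor for selenocysteine insertion, read 68.8, 154 and 138 CPM in C, 79.9 and 79.3 CPM in DM-22 and 114 and 91.0 CPM in DM+SGLT2i.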

How the data were processed

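Polyadenylated RNA of whole kidney was sequenced from a directional library kit. According to the submitters' processing notes, reads were handled with bcl2fastq, FastQC, Trim Galore, STAR and edgeR on build mm10; versions, the read counter and its strand setting are not given in the sources used here. The authors deposited 1 table of log2 CPM values, scaled between libraries by TMM with a small prior, for 17537 genes in 7 libraries. From these the CPM were recovered: all values came out as whole reads within a tolerance of 0.05 read, with totals of 46456125 to 56541594 reads per library. Reads are not independent molecules, so depth covers counting error alone.

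Genes that reached 1 CPM in 2 or more libraries (13976, of which 48 members) were tested on log2(CPM + 0.5) in limma 3.58.1 (R 4.3.3, moderated test with a trend, two-sided) with 1 spread over the 3 groups and Benjamini-Hochberg adjustment over all genes. The fit was made with all 3 controls and with controls 8 and 9, and it was tested on simulated data. The design had foreseen CPM values; the deposited log2 values were put back on that scale. Replicate numbers were not taken as pairs: deviations of the same-numbered DM-22 and DM+SGLT2i libraries correlated at -0.0412 over 13976 genes. Alternatives were another pseudocount, the deposited scale, other filters and scalings, voom weights, fewer groups, and each library left out.

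The members and lists were chosen with earlier results of these data known. Values per library are given for the most abundant member of each family and, for each comparison and set of controls, the 3 members with the smallest p in each direction; Gsta4, Gpx1, Gpx4 and Gm10639 were added after their values were seen. From each gene list the 2 genes with the smallest p in each direction in DM-22 against controls 8 and 9 could be named. Levels between genes are per kb of GENCODE M21 exons. Promoter windows are from RefSeq (GRCm38.p6), for 46 of 51 members. Shared stretches of 50 bases were counted between GENCODE M21 transcripts of different genes.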

Additional observations from a re-analysis of the deposited data

Results flagged for a closer look

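3 results are given for a closer look because of how the libraries fell.

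Sod1 lay above controls 8 and 9 in both DM-22 libraries and below them in both DM+SGLT2i libraries, with a difference of -0.397 on the log2 scale between DM+SGLT2i and DM-22. This difference did not pass the threshold in limma with all 3 controls, and no separate test of the opposite directions was made. Control replicate 2, at 424 CPM, was also below the other controls.

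Ugt3a2 lay on opposite sides of the mean of the 3 controls in the diabetic groups, with both DM-22 libraries above it and both DM+SGLT2i libraries below it, and the difference between the groups was -0.404. This too did not pass the threshold, and the opposite directions were not tested. Against controls 8 and 9 the pattern did not hold, since DM-22 replicate 1 was then below both.

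Ugt1a10 in DM-22 replicate 2, at 1.02 CPM, stood away from the other diabetic libraries at 39.5 to 57.0 CPM. On the scale of log2(CPM + 0.5), its gap to the nearest of them took 0.900 of the range of the 4 values, above Dixon's 95% critical value for 4 samples, whereas on the CPM scale it took 0.687, which is below that value. The call thus depends on the scale. Chance gives such a gap in about 1 of 20 groups, and 27 members were examined in this way.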

How the results depend on the processing

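The median difference over members moved by less than 1 SD between libraries (0.216) under the alternatives run in all 4 comparisons. That SD is about the size of the medians, 0.24 in DM-22 against C, 0.17 in DM+SGLT2i against C and 0.19 in the diabetic libraries against C. Staying within it therefore does not show stability. The median kept its sign in the 3 comparisons with C, although without DM+SGLT2i replicate 2 it was 0.0030 in DM+SGLT2i against C. Between the diabetic groups, where it was -0.12, it became 0.0013 with no filter and 0.029 without DM+SGLT2i replicate 1, so its sign is not resolved. Counts at an unadjusted p under 0.05 were small and moved, and the cause was not tested. With total-count scaling, 2 members passed in DM+SGLT2i against C and 2 in the diabetic libraries against C, in place of 1 each. Fitted on the groups compared alone, 2 passed in DM+SGLT2i against C and 2 in DM+SGLT2i against DM-22, in place of 1 and 0. The replicate block on DM+SGLT2i against DM-22 gave 2 in place of 0, and since the replicate numbers are not known to pair the libraries nothing is read from it.

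Leaving out 1 library at a time gave 0 to 15 members in DM-22 against C, 0 to 17 in DM+SGLT2i against C, 0 to 3 between the diabetic groups and 0 to 17 in the diabetic libraries against C. The highest counts all came without control replicate 2. Without DM-22 replicate 2, 2 passed in DM-22 against C and 4 in the diabetic libraries against C. At the adjusted threshold the count in DM+SGLT2i against C was 0 to 1, with Gsta1 passing without control replicate 2. A fit with 1 library in a group assumes that it varies like the other groups. Total-count scaling shifted the median of all genes by -0.162 in DM-22 replicate 2 and 0.105 in DM+SGLT2i replicate 1. With 2 libraries in each diabetic group, small differences cannot be resolved, and Mgst2, Gstp3 and Ugt2b35 are limited by low counts.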
